A study of Mus musculus with 1790 samples.

Results

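Cadherins and protocadherins are membrane proteins that carry repeated extracellular domains and bind partners on neighbouring cells in a calcium-dependent way. Classical cadherins couple to catenins and through them to actin, and the type II members are known for labelling particular neuron populations. Delta protocadherins carry conserved cytoplasmic motifs, and several of them recruit the WAVE actin regulator. The clustered protocadherins lie in 3 neighbouring gene clusters, alpha, beta and gamma, of which a single neuron uses only a few isoforms, chosen stochastically, as a surface identity. The family was taken here as every gene row whose symbol begins with Cdh and a digit, or with Pcdh. These are 94 of the 49915 gene rows found in any of the deposited tables: 23 cadherins, 12 non-clustered protocadherins and 59 clustered protocadherins, and 42 of the 94 are listed in every table.

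Neurogliaform cells (NGCs) are GABAergic interneurons of the upper cortical layers with a dense, short axon, and the study examined how their diversity arises from Hmx3-expressing cells of the embryonic preoptic area (POA). Cells of P15 and P30 were sorted from the upper layers of somatosensory cortex of untreated mice carrying Hmx3-Cre, Htr3a-GFP and the R26R-tdTOM fl/fl reporter, in which BAC transgenes drive iCre from Hmx3 and GFP from Htr3a. GFP therefore marks Htr3a-expressing interneurons, and tdTOM marks cells with a history of Hmx3-Cre activity, so that tdTOM+ and tdTOM- cells of a sort came from the same mice. Dock5+NGCs and Lsp1+NGCs are the tdTOM+ cells labelled Lamp5 Plch2 Dock5 and Lamp5 Lsp1, and non-NGCs are the tdTOM- (GFP+) cells given any other subtype label. The patch-seq cells were aspirated from tdTOM+/GFP+ cells in slices of the same genotype, at postnatal days 15 to 25 for Dock5 and 14 to 23 for Lsp1 cells, and 5 of 20 Dock5 but 1 of 27 Lsp1 cells were from day 23 or later. The E14.5 tdTOM+/GFP+ cells were sorted from POA of this genotype. The E14.5 FlashTag+ cells came from wild-type POA and are those most brightly marked by a dye that enters dividing cells at the ventricle. The methods give a C57BL/6 background for the mouse lines and CD1 dams for FlashTag injection. Wild-type POA and caudal ganglionic eminence (CGE) gave 1 droplet library each. For these libraries the methods name both C57BL/6 embryos and CD1 mice, so their strain is not settled.

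The samples hold 390 P15, 581 P30, 47 patch-seq, 418 E14.5 tdTOM+/GFP+ and 352 FlashTag+ cells, and the droplet libraries hold 2106 POA and 4115 CGE cells. Median counts per cell lay between 213229 and 511936 on the plate-based platforms and at 7574 in POA and 5710 in CGE droplets. No label names the animal behind a cell, and brains were pooled for the P15 and P30 sorts, so each group was taken as 1 sample with no replicate, although the patch-seq cells, of several ages, come from several animals. Levels are CPM, the counts of a gene per 1000000 counts summed over the cells of a group, with an exact Poisson 95% interval, folds are log2 after adding 10 CPM to both groups, and a gene is called past 2-fold where that value is at least 1 in size and its mean over both groups is at least 10 CPM. The intervals cover counting error only and are too narrow for the plate-based cells, in which genes found in few cells gave on average 21.4 to 39.6 counts per positive cell, against 1.15 in POA and 1.10 in CGE droplets. The subtype labels come from a machine-learning classifier that read these same values, so they are not independent of the family's levels. The P15 and P30 tables share 11979 of 17465 rows each, so no level is compared between the ages. The summed GABAergic markers Gad2, Slc32a1 and Htr3a had cell medians of 5348 CPM in Dock5+NGCs and 5043 CPM in Lsp1+NGCs at P15, and the same with Gad1, which the P15 table does not list, had 7353 and 7635 CPM at P30. The genes in the subtype names separated the groups only in part: Dock5 had 93.8 CPM in Dock5+NGCs and 50.0 CPM in Lsp1+NGCs at P15 and 41.7 and 1.22 CPM at P30, but 4.78 and 3.53 CPM in patch-seq cells. Lsp1 had 13.0 and 14.0 CPM at P15 and 11.5 and 13.5 CPM at P30, and separated the groups in patch-seq cells alone, with 5.02 and 53.6 CPM. Ndnf was past 2-fold higher and Npy past 2-fold lower in Dock5 cells in all 3 collections. At E14.5, Hmx3 had 29.8 CPM in tdTOM+/GFP+ and 0.345 CPM in FlashTag+ cells.

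The promoters of the 3 members that the results turn on are shown first, as the 250 bases before the RefSeq start on GRCm38.p6, read 5′ to 3′ on the strand of the gene, with CCAAT boxes (CCAAT or its reverse complement ATTGG) in capitals. Pcdh17 (chr14:84443563-84539002, plus strand) and Pcdh8 (chr14:79766775-79771312, minus strand) lie on the same chromosome, while Pcdh10 (chr3:45378398-45435623, plus strand) lies on another. The windows printed are chr3:45378148-45378397, chr14:84443313-84443562 and chr14:79771313-79771562.
Pcdh10: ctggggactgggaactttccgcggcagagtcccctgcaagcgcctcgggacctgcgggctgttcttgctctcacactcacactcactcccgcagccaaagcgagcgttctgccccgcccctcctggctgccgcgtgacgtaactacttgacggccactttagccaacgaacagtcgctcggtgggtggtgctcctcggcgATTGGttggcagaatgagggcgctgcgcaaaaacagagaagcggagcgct
Pcdh17: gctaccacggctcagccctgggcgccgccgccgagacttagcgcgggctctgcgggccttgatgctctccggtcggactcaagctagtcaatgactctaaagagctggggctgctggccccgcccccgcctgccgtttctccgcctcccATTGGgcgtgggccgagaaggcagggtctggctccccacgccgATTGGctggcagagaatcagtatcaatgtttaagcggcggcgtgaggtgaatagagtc
Pcdh8: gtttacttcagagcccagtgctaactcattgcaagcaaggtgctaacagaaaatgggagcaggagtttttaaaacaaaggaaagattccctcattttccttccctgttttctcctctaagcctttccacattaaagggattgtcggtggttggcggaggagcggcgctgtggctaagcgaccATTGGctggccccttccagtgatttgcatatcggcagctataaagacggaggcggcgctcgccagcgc
Their GC content is 63.2% for Pcdh10, 64.8% for Pcdh17 and 51.2% for Pcdh8, and the box occurs 1, 2 and 1 times. CCAAT on either strand is held by 34.5% of 27025 promoters of this length and by 14 of the 22 non-clustered members for which a promoter was at hand. The homeodomain core TAATTA is held by 4.90% of promoters and by 0 of the 22, GGGCGG by 32.9% and by 9, CAAGTG by 11.6% and by 3, and CACGTG by 6.05% and by 1. A match describes the letters only, and some of the 22 promoters hold several of these motifs.

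Dock5+NGCs and Lsp1+NGCs, the principal NGC subtypes, were compared first for their non-clustered members. At P15 the Dock5+NGCs carried higher levels of the delta protocadherins Pcdh17, Pcdh10, Pcdh18 and Pcdh11x and of the type II cadherins Cdh9 and Cdh20, and lower levels of Pcdh8, Pcdh15, Pcdh19 and Cdh8. Of 35 members listed, 18 passed the mean of 10 CPM, 6 of them through the level of 1 group alone, and 6 were past 2-fold higher and 4 lower. Members that passed through 1 group alone, in which a large fold is built in, made up 5 of these 10 calls. The background of the same rule over all genes was 8.8% higher and 8.56% lower. The median log2 fold of the 18 was 0.83, beside -0.0075 over all genes tested. At P30 the levels of Pcdh10, Cdh9, Pcdh11x, Pcdh20, Cdh10, Cdh7, Pcdh18 and Pcdh9 were higher and those of Pcdh15 and Cdh4 lower. Of 26 members listed at P30, 19 passed, 6 of them through 1 group alone and all 6 among the 10 calls, with a median log2 fold of 0.36 and a background of 8.85% higher and 7.8% lower.

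Pcdh17, a delta-2 protocadherin known from corticobasal ganglia axon pathways, was found in every cell of both groups at P15, in 36 Dock5+NGCs and 33 Lsp1+NGCs. Its level in single Dock5+NGCs ran from 107 to 3310.0 CPM with a median of 963, and in Lsp1+NGCs from 1.86 to 1558 CPM with a median of 110.1. The ranges overlapped, but the median Dock5+NGC lay between the median and the highest Lsp1+NGC. Summed over the cells it was 1106 CPM (95% interval 1086–1127) against 252 CPM (242–263), a log2 fold of 2.09. At P30 its level was 488 CPM (478–498) in Dock5+NGCs and 241 CPM (231–251) in Lsp1+NGCs, a log2 fold of 0.99 that fell short of 2-fold on this scale. Single P30 cells ran from 0 to 2548 CPM with a median of 276 in Dock5+NGCs and from 0 to 1574 CPM with a median of 118 in Lsp1+NGCs. By plate, its P15 log2 fold was 2.14 in rows 1 to 20 and 2.02 in rows 21 to 40, while at P30 it was 2.34 and 0.33.

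Pcdh10, the delta-2 protocadherin known as OL-protocadherin, also stood higher in Dock5+NGCs at both ages. At P15 its level was 362 CPM (350.2–373) against 143 CPM (136–151), equal to 1.28 on the log2 scale, with cell medians of 408 and 97.6 CPM. At P30 it was 367 CPM (359–376) against 97.9 CPM (91.8–104), a log2 fold of 1.81, with cell medians of 272 and 25.3 CPM. Nearly all cells of both groups held at least 1 count of it, 94.4% and 93.9% at P15 and 93.4% and 94.3% at P30. Some of these cells held little, with P30 cells at 6.42 CPM in Dock5+NGCs and 3.55 CPM in Lsp1+NGCs. The share of cells with any count therefore does not separate the amount per cell from the share of cells above a trace. The highest single cells reached 1683 and 515 CPM at P15 and 1675 and 619 CPM at P30, so the ranges of the groups overlapped.

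The delta-2 protocadherin Pcdh8, which is known for activity-regulated removal of N-cadherin from synapses, went the other way at P15. Its counts came from 55.6% of the Dock5+NGCs and, among Lsp1+NGCs, from 87.9%, with cell medians of 2.95 and 105 CPM. The summed level was 20.4 CPM (17.7–23.3) against 151 CPM (143–159), a log2 fold of -2.40. At P30 its level was 24.5 CPM in Dock5+NGCs and 47.7 CPM in Lsp1+NGCs, a log2 fold of -0.74. In the P30 cells the medians were close, 2.98 and 3.52 CPM, and the separation seen at P15 was smaller. Pcdh19, the X-linked delta-2 member of female-limited epilepsy, had 17.1 against 72.5 CPM at P15 and 25.1 against 25.2 CPM at P30. Its counts sat in few cells, 9 Dock5+NGCs and 9 Lsp1+NGCs at P15. Pcdh18 (chr3:49743296-49757325) was past 2-fold higher at both ages, with 45.5 against 5.16 CPM at P15 and 47.6 against 13.2 CPM at P30.

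**Figure D1:**
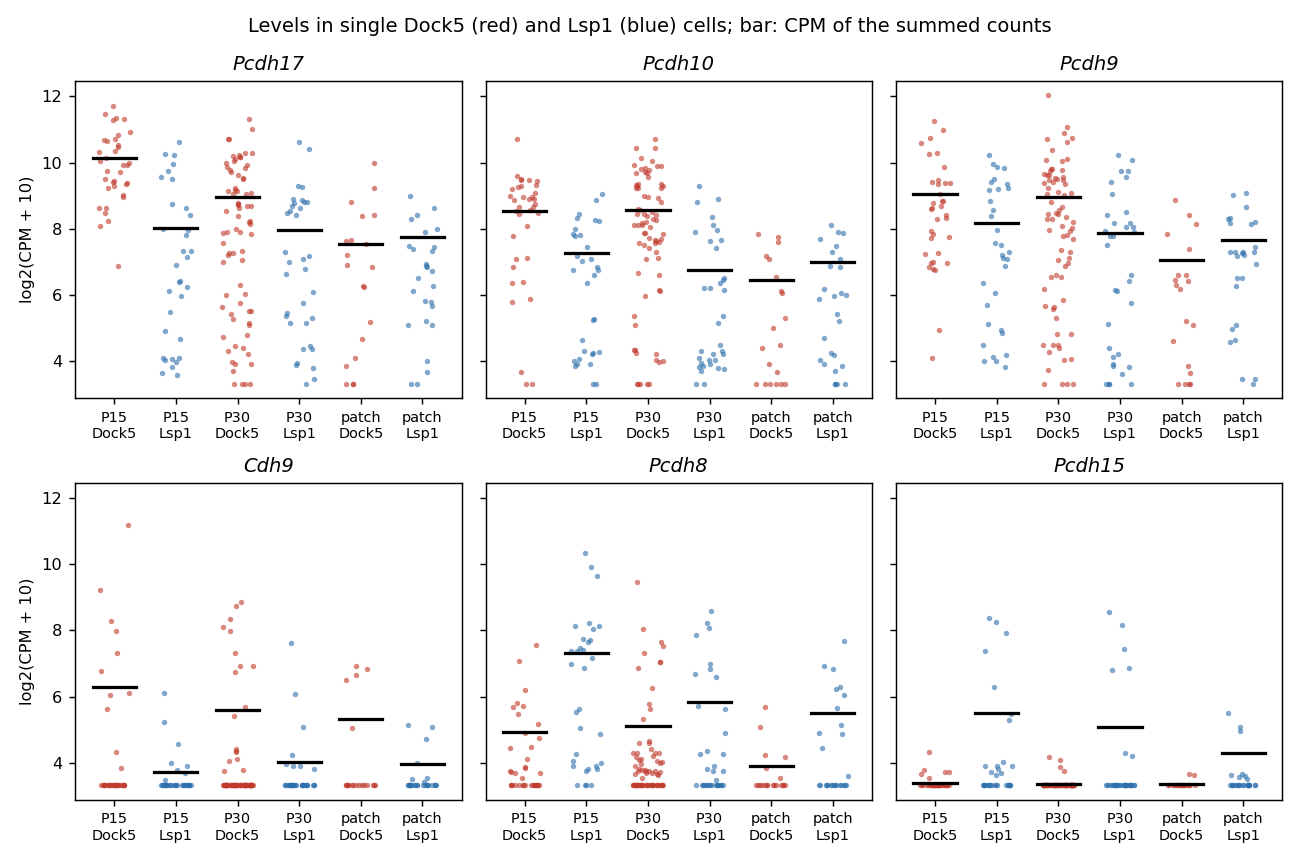
Levels of 6 members in single Dock5 (red) and Lsp1 (blue) cells at P15, P30 and in patch-seq, on a log2(CPM + 10) axis, each point a cell and each bar the CPM of the summed counts. Pcdh17 and Pcdh10 lie higher in Dock5 cells at both sorted ages, in patch-seq the summed levels of both lie lower in Dock5 cells while the Pcdh17 cell medians are 108 and 95.5 CPM, and Pcdh8 lies lower in Dock5 cells most clearly at P15.

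Among the delta-1 protocadherins, which have a seventh extracellular domain, Pcdh9 (chr14:93013410-93890679) was the most evenly carried. It was found in every P15 cell of both groups, with cell medians of 379.7 CPM in Dock5+NGCs and 147 CPM in Lsp1+NGCs. The log2 fold was 0.87 at P15, with 521 against 279.6 CPM, and 1.09 at P30, with 492 against 225 CPM. Pcdh11x, an X-linked delta-1 member, had counts in 41.7% of the Dock5+NGCs and in 21.2% of the Lsp1+NGCs of P15. Its 51.5 against 7.33 CPM rested largely on 1 cell, which held 54.8% of the Dock5+NGC counts, and at P30 it had 26.8 against 2.44 CPM. Pcdh7 was higher at P15 (log2 fold 0.69) and lower at P30 (-0.47), neither past 2-fold, and 14 genes overlap it on its own strand. Pcdh15, a tip-link protein of hair cells, was close to 0 in Dock5+NGCs at both ages, with 0.568 CPM at P15 and 0.261 CPM at P30, and had 35.5 and 23.6 CPM in Lsp1+NGCs. Those Lsp1+NGC counts came from 15 of 33 cells at P15 and 7 of 35 at P30.

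The type II cadherins mediate selective adhesion between neuron populations. Cdh9, 1 of them, had the largest P15 fold of the family, but passed the filter through 1 group alone and rested largely on 1 cell. Cdh9 (chr15:16728756-16857094) had 68.6 CPM (63.7–73.8) in Dock5+NGCs and 3.3 CPM (2.26–4.66) in Lsp1+NGCs of P15, or 2.56 on the log2 scale. It was a gene of a minority of cells, found in 11 of 36 and 8 of 33 cells, with a median of 0 CPM in both groups and 53.5% of the Dock5+NGC counts in 1 cell. At P30 it had 38.2 against 6.2 CPM, a log2 fold of 1.57. The shares of cells with any count were close, 23.7% and 22.9%, but in both groups they include cells with only a few CPM. Cdh20 differed in the share of cells at P15, with counts in 88.9% of the Dock5+NGCs and in 42.4% of the Lsp1+NGCs and with cell medians of 100.2 and 0 CPM. Its level was 155 against 45.4 CPM at P15, a log2 fold of 1.57, and 70.3 against 52.4 CPM at P30, a log2 fold of 0.36. Cdh10 had log2 folds of 0.92 and 1.53, with 98.5 against 47.5 CPM at P15 and 63.2 against 15.4 CPM at P30. Cdh7 was named at P30 only, with 25.0 against 3.25 CPM. Cdh8 had 3.03 against 28.0 CPM at P15, and 61.6% of the Lsp1+NGC counts were in 1 cell.

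The type I cadherin Cdh2, N-cadherin, the general adhesion molecule of neural tissue, had 60.9 CPM (56.3–65.8) against 54.0 CPM (49.5–58.8) at P15, a log2 fold of 0.15. Cdh4, R-cadherin (chr2:179442431-179899373), had 7.72 against 30.5 CPM at P30, a log2 fold of -1.19. Its direction turned to 0.65 in plate rows 21 to 40, and without the cell holding the largest count in each group its log2 fold was -0.93. Without those cells the mean of Pcdh15 was under 10 CPM, so that 7 members were past 2-fold higher and 0 lower at P30. The GPI-anchored Cdh13, T-cadherin, which has no cytoplasmic domain, gave -0.55 on the log2 scale at P15 and -0.11 at P30. Cdh11, a type II member, was higher at P15, with 189 against 106 CPM, and close at P30, with 123 against 113 CPM, and neither log2 fold, 0.78 and 0.11, was past 2-fold.

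Of 17 non-clustered members that could be called at both ages, 4 were past 2-fold higher in Dock5+NGCs at P15 and at P30, namely Cdh9, Pcdh10, Pcdh11x and Pcdh18. They are 66.7% of the 6 called higher at P15 and 50.0% of the 8 at P30, beside 18.0% and 17.6% for all genes called higher at either age. Cdh9 and Pcdh11x passed through 1 group alone at both ages and Pcdh18 at P15, so a large fold is built into those calls. By plate, Pcdh10 fell to 0.95 and Pcdh11x to 0.61 in rows 21 to 40 at P15, and Pcdh18 to 0.096 in rows 21 to 40 at P30. Pcdh15 was lower at both ages but passed through 1 group alone at each, and its P30 log2 fold in rows 1 to 20 was -0.79. The cells of the 2 ages are different cells. Dissociation and activity-response genes, a marker list that holds Fos, Egr1, Hspa1a and similar genes, had cell medians of 2754 and 2730 CPM in Dock5+NGCs and Lsp1+NGCs at P15 and of 549 and 1308 CPM at P30. Their part in the P30 differences was not tested.

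**Figure D2:**
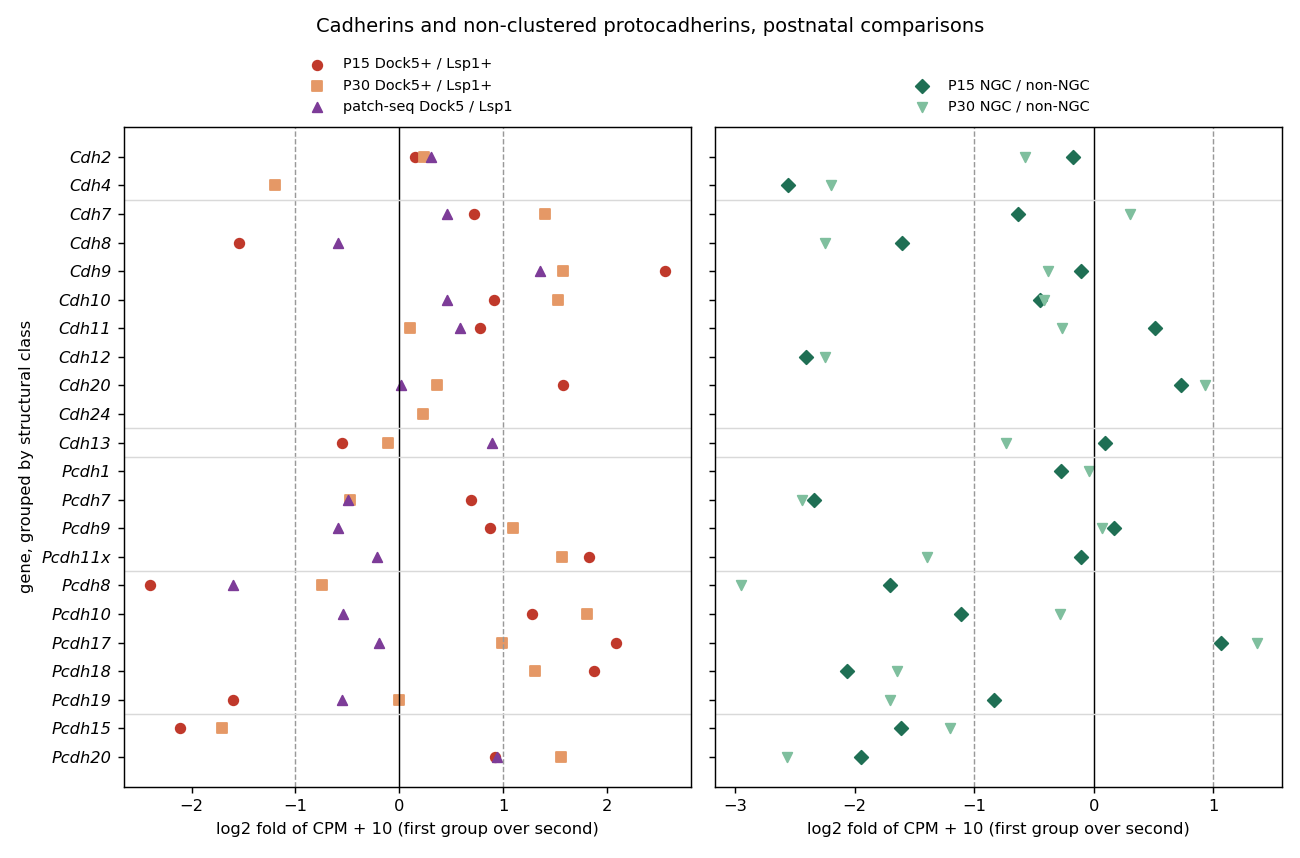
Log2 folds of CPM + 10 for the cadherins and non-clustered protocadherins, grouped by structural class, for Dock5+NGCs over Lsp1+NGCs and for NGCs over non-NGCs, with horizontal axes in log2 units. Delta-2 members lie on both sides of 0 in the subtype comparisons, with Pcdh17 at 2.09 and Pcdh8 at -2.40 at P15, and most members past 2-fold in the NGC comparisons lie below 0.

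The patch-seq cells gave the same comparison in 20 Dock5 and 27 Lsp1 cells recorded in slices. Cdh9 was past 2-fold higher in Dock5 cells and Pcdh8 past 2-fold lower, while Pcdh17, Pcdh10 and Pcdh9 had log2 folds of -0.20, -0.54 and -0.59. Of 35 members listed, 16 passed the mean of 10 CPM, beside a background of 7.63% higher and 9.04% lower, so 1 of 16 in each direction is no more than all genes gave. Cdh9 and Pcdh8 are also the 2 members that passed through 1 group alone. Cdh9 had 30.2 CPM (26.6–34.3) against 5.7 CPM (5.07–6.37), in 5 and 7 cells. Pcdh8 had 5.02 CPM (3.6–6.81) against 35.5 CPM (33.9–37.1), in 6 and 12 cells. Median counts per cell were 378451.5 in Dock5 and 1037400 in Lsp1 cells, and these numbers of cells are not adjusted for depth.

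Each of the 8 patch sets, named in the cell labels, holds cells of both subtypes and gives a value within the set. Sets 4, 10 and 11 hold 1 Dock5 cell each, and set 6 holds 1 Lsp1 cell. Cdh9 was higher in Dock5 cells in 4 sets and lower in 0, and had no count in either subtype in the other sets. Of the sets with a higher value, set 4 is among those with 1 Dock5 cell, and set 7 had 8.44 against 5.97 CPM. Pcdh8 was lower in Dock5 cells in 6 sets and higher in 0, and had no count in either subtype in the other sets. Of the sets with a lower value, 4, 10 and 11 rest on 1 Dock5 cell each, at 0 CPM, and set 7 had 23.0 against 25.2 CPM. Pcdh17 was higher in 5 sets and lower in 3, Pcdh10 higher in 2 and lower in 6, and Pcdh9 higher in 2 and lower in 6. The direction of the pooled Pcdh17 value therefore differed from that of most sets.

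The deepest Lsp1 cell held 15968484 counts, 30.0% of its group, and with them 44.8% of the Lsp1 counts of Pcdh17 and 50.8% of those of Pcdh10. In single cells Pcdh17 had medians of 108 CPM in Dock5 and 95.5 CPM in Lsp1 cells, with highest values of 1014 and 495 CPM. Pcdh10 had medians of 17.2 and 48.7 CPM. All 7 oligodendrocyte-lineage markers were present in both groups, and their sum ran from 116 to 5696 CPM in Dock5 cells and from 5.52 to 14378 CPM in Lsp1 cells, with a median of 805 CPM in each. Among the 12 Dock5 and 16 Lsp1 cells with at most 1000 CPM of these markers, Cdh9 and Cdh13 of 14 members tested were past 2-fold higher and Pcdh8 lower, near the background of 10.8% higher and 10.9% lower among these cells. The part of RNA from neighbouring cells in the other patch-seq values was not tested.

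NGCs of both subtypes were next compared with non-NGCs, the GFP+ interneurons of other labels. Most members past 2-fold were lower in NGCs: 9 lower and 1 higher of 21 that passed at P15, and 10 lower and 1 higher of 21 at P30. The backgrounds were 5.65% higher and 7.08% lower at P15 and 6.28% higher and 6.41% lower at P30, and 3 members at each age passed through 1 group alone, of which 2 were called at P15 and 3 at P30. The median log2 fold was -0.63 at P15 and -0.73 at P30. Pcdh17 was the member past 2-fold higher in NGCs at both ages, and 8 were lower at both, namely Cdh12, Cdh4, Cdh8, Pcdh15, Pcdh18, Pcdh20, Pcdh7 and Pcdh8. They are 88.9% of the 9 called lower at P15 and 80.0% of the 10 at P30, beside 40.8% and 46.3% for all genes. Among the 8, Cdh12 passed through 1 group alone at both ages, Cdh4 at P15, and Cdh8 and Pcdh15 at P30. A large fold is built into those calls. NGCs here are the cells of the subtype comparisons above. Dissociation and activity-response genes summed to 1766 CPM in NGCs and 572 CPM in non-NGCs at P30, with 6 of 7 past 2-fold higher, and their part in these values was not tested.

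Pcdh17 had 698 CPM (686–709) in NGCs and 329 CPM (322–336) in non-NGCs at P15, a log2 fold of 1.06, with cell medians of 591 and 191 CPM. At P30 it had 404 CPM (397–411) against 151 CPM (146–156), a log2 fold of 1.36, with cell medians of 228 and 19.2 CPM. The call was lost, with the same sign, at 0.77 in P15 plate rows 1 to 20, at 0.97 in P30 rows 21 to 40, and at 0.84 and 0.87 with cells of both sorts at P15 and P30. Its cells overlapped between the groups at both ages, with non-NGCs reaching 1707 CPM at P15 and 1779 CPM at P30. Pcdh10 was lower in NGCs, with 257 against 565 CPM at P15, a log2 fold of -1.11, and with 276 against 337 CPM at P30, a log2 fold of -0.28. Dock5+NGCs alone, at 362 CPM at P15 and 367 CPM at P30, lay under the non-NGCs at P15 and above them at P30.

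The members lower in NGCs came from several structural classes. The delta-1 protocadherin Pcdh7 had 59.0 against 338 CPM at P15 and 35.9 against 238 CPM at P30, log2 folds of -2.34 and -2.44. Pcdh8 had 82.7 against 293 CPM at P15 and 32.3 against 317 CPM at P30, and its cell medians at P30 were 2.98 and 200.4 CPM. Pcdh20 (chr14:88464743-88471396) had 29.4 against 142 CPM at P15 and 19.8 against 166 CPM at P30. All 3 were found in a larger share of non-NGCs, 92.1%, 85.4% and 66.3% at P15, than of NGCs, at 73.9%, 71.0% and 52.2%. Among cadherins, Cdh4 had 8.6 against 99.6 CPM at P15 and 15.4 against 106 CPM at P30. Cdh12, a type II member, had 3.36 against 60.9 CPM at P15 and 0.379 against 39.2 CPM at P30, in 32.6% and 20.8% of non-NGCs. Cdh8, also of type II, had 15.0 against 65.8 CPM at P15 and 1.83 against 46.1 CPM at P30.

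Across labelled classes, with tdTOM+ Dock5 and Lsp1 cells kept apart from the other Lamp5, Sncg and Vip cells of both sorts, the 2 NGC subtypes held the lowest level of 12 members at P15 and 14 at P30, beside 42.2% and 35.9% of all genes ordered in the same way. Of 21 members ordered at P15 and 20 at P30, Dock5 cells held the lowest level in 5 and Lsp1 cells in 7 at P15, and each held it in 7 at P30. Dock5 cells held the highest in 4 at P15 and in 1 at P30, while Lsp1 cells held it in 0 at both ages. Over all genes, Dock5 cells held the lowest level in 19.5% at P15 and 14.0% at P30 and the highest in 18.7% and 17.3%. Lsp1 cells held the lowest in 22.7% and 21.9% of all genes and the highest in 21.9% and 23.3%. Pcdh17 had 1106 CPM in Dock5, 425 in other Lamp5, 309 in Vip, 252 in Lsp1 and 239.8 in Sncg cells at P15, and the last 2 are within their intervals of each other. At P30 Pcdh17 was again highest in Dock5 cells, at 488 CPM, and lowest in Sncg cells, at 175 CPM. Pcdh10 was highest in Vip cells, with 568 CPM at P15 and 476 CPM at P30, and lowest in Lsp1 cells at both ages.

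Other members marked other classes. Pcdh7 was carried by Vip and other Lamp5 cells, at 408 and 334 CPM at P15 and 325 and 266 CPM at P30, and was between 30.6 and 74.4 CPM in Dock5, Lsp1 and Sncg cells. Pcdh8 lay between 258 and 320.1 CPM in Sncg, Vip and other Lamp5 cells at P15, at 151 CPM in Lsp1 and at 20.4 CPM in Dock5 cells. Cdh12 was carried by Sncg cells, at 118 CPM, and Vip cells, at 48.7 CPM, at P15, with under 5 CPM in each Lamp5 class. Cdh8 was carried by Vip cells, at 115 CPM at P15 and 90.3 CPM at P30. The Sncg class holds 12 cells at P15 and 27 at P30, the fewest of these classes.

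Cells without a subtype call and tdTOM- cells labelled Lsp1 were in none of the main groups above. The same classifier, reading these same values, set them apart, so their values are not independent of it. At P15 Pcdh17 had 626 CPM (615–636) in 85 inconclusive tdTOM+ cells and 291 CPM (284–298) in 81 inconclusive tdTOM- cells, and at P30 it had 429 CPM (422–436) in 154 and 192 CPM (187–197) in 156 such cells. Pcdh8 was lower on the tdTOM+ side, with 165 against 302 CPM at P15 and 87.0 against 308 CPM at P30. The inconclusive tdTOM+ cells may hold any subtype. Among cells labelled Lsp1, the 20 tdTOM- cells of P15 had 196 CPM of Pcdh17 and 182 CPM of Pcdh8, beside 252 and 151 CPM in the tdTOM+ cells. The 28 tdTOM- Lsp1 cells of P30 had 99.1 CPM of Pcdh17 and 155 CPM of Pcdh8, beside 241 and 47.7 CPM.

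**Figure D3:**
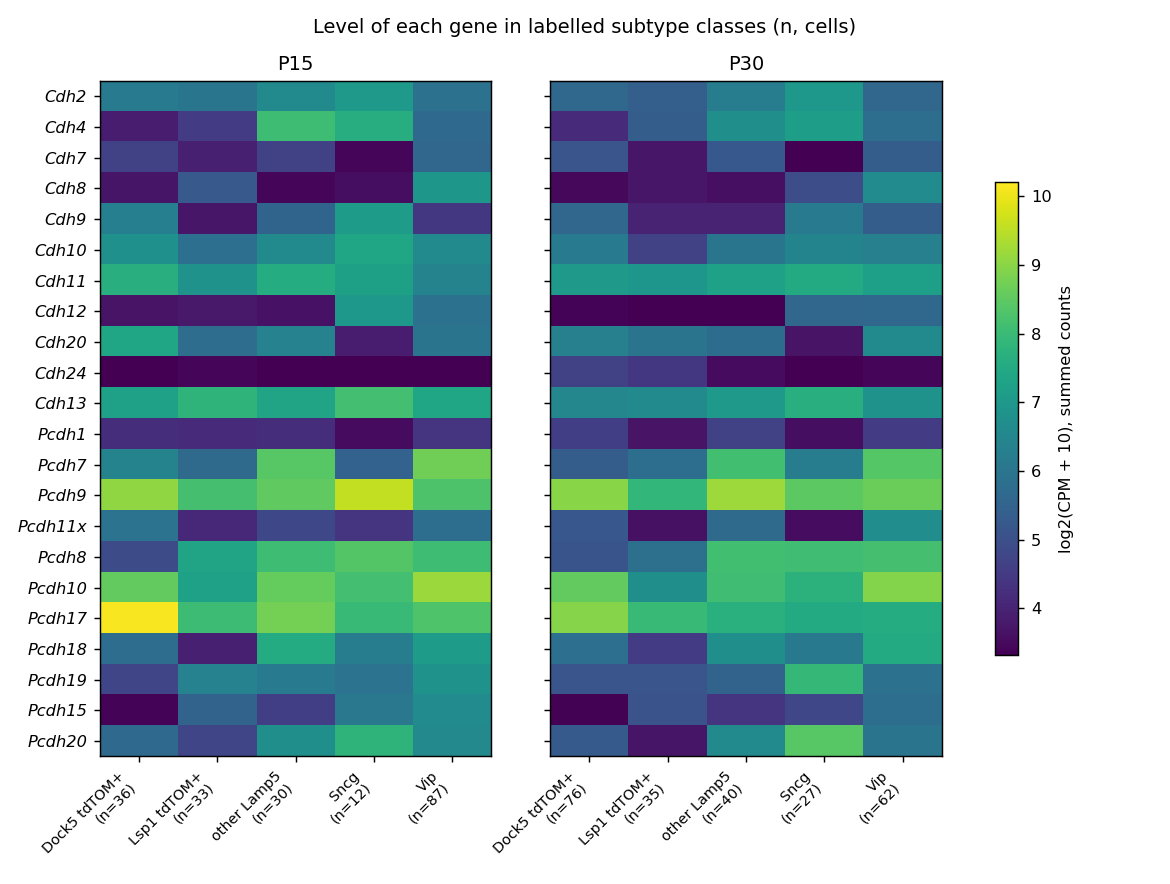
Level of each non-clustered member in the labelled classes at P15 (left) and P30 (right), as colour for log2(CPM + 10) of the summed counts, with the number of cells under each class. The Pcdh17 row has its highest level in Dock5 cells at both ages (1106 and 488 CPM), and the rows of Pcdh7 and Pcdh8 fall in Dock5 and Lsp1 cells against Vip cells.

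At E14.5 the tdTOM+/GFP+ cells of the Hmx3 lineage were compared with FlashTag+ cells, a collection labelled as progenitors. Pcdh17 and Pcdh19 were past 2-fold higher in tdTOM+/GFP+ cells, and Cdh4, Pcdh18, Cdh11, Cdh6 and Pcdh10 were lower. Of 24 members listed in both tables, 15 passed, and their median log2 fold was -0.21. The background was 7.74% higher and 22.2% in either direction. Of the members called, Pcdh18 and Cdh6 passed through 1 group alone, so a large fold is built into those 2 calls. Pcdh17 was found in 83.5% of tdTOM+/GFP+ cells and 31.2% of FlashTag+ cells, with medians of 124 and 0 CPM. Its level was 291 CPM (289–294) against 58.0 CPM (56.6–59.5), a log2 fold of 2.15. Pcdh19 had 75.1 against 28.0 CPM, a log2 fold of 1.16.

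Cdh4 gave the largest fold of the comparison, with 25.4 CPM (24.6–26.2) against 378 CPM (374–381), a log2 fold of -3.45, and was found in 23.7% of tdTOM+/GFP+ and 79.8% of FlashTag+ cells. Pcdh18 had 2.66 against 45.3 CPM, a log2 fold of -2.13. Cdh11 had 26.5 against 109 CPM and Pcdh10 had 72.3 against 173 CPM, log2 folds of -1.70 and -1.15. Cdh6 had 2.62 against 19.9 CPM, with 85.7% of the tdTOM+/GFP+ counts in 1 cell. The general N-cadherin gene Cdh2 was near level, with 237 against 247 CPM, and was found in 95.7% and 90.9% of cells.

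The collections differ in the state of their cells, which cannot be told apart from the sort, the genotype and the strain. By counts of post-mitotic GABAergic-like markers (Dcx, Gad1, Dlx5 and others) against progenitor-like markers (Nes, Hes5, Mki67 and others), 98.6% of tdTOM+/GFP+ cells were post-mitotic-like and 85.5% of FlashTag+ cells were progenitor-like. A comparison within the 412 and 51 post-mitotic-like cells was chosen after seeing the data. Of 15 members tested there, 7 were past 2-fold higher in tdTOM+/GFP+ cells and 3 lower, beside a background of 8.85% higher and 10.5% lower. Among all cells of the collections, 2 were higher and 5 lower. Pcdh17, Pcdh19, Cdh4 and Pcdh18 were called in the directions given above, while Cdh6 was not called. Pcdh10 reversed to a log2 fold of 2.08 and Cdh11 to 0.11.

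Within the FlashTag+ cells themselves, the post-mitotic-like cells held lower levels of 8 members and a higher level of 0 of 17 tested, beside a background of 8.73% higher and 15.9% lower. Pcdh10 had 202 CPM in the 301 progenitor-like and 9.73 CPM in the 51 post-mitotic-like cells, a log2 fold of -3.42. Pcdh9 had 121 against 5.39 CPM, and Cdh2 had 274 against 94.9 CPM. Cdh4 had 413 against 181 CPM, and Cdh11 had 124 against 24.2 CPM. Pcdh17 was level, with 57.6 CPM in progenitor-like and 60.9 CPM in post-mitotic-like cells, but 40.3% of the latter counts were in 1 cell.

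In the droplet libraries of POA and CGE, Pcdh17 was the member that differed most, and it was higher in POA. Of 33 members listed, 13 passed, 1 of them through 1 group alone, and 0 were past 2-fold in either direction, beside a background of 2.0% higher and 1.35% lower, at which fewer than 1 call is due among 13 members. Their median log2 fold was 0.28, beside -0.0058 over all genes tested. Pcdh17 had 152 CPM (147–158) in POA and 82.1 CPM (78.8–85.6) in CGE, a log2 fold of 0.82. Cdh11 had 23.3 against 10.9 CPM, a log2 fold of 0.67, and Cdh13 had 27.0 against 14.3 CPM, a log2 fold of 0.61. Pcdh10 had 71.6 against 60.3 CPM, and Cdh2 had 196 against 197 CPM. Pcdh9 was on the other side, with 39.7 against 51.5 CPM, a log2 fold of -0.31.

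The droplet libraries also allow a comparison of cell states within a library. In POA, Pcdh17 had 170.0 CPM in 1558 post-mitotic-like and 92.5 CPM in 539 progenitor-like cells, a log2 fold of 0.81. In CGE it had 94.2 and 62.0 CPM. Cdh11 in POA had 17.6 CPM in post-mitotic-like and 43.1 CPM in progenitor-like cells, and Pcdh10 in CGE had 44.7 and 87.1 CPM. Of 13 members tested in POA and 12 in CGE, 0 were past 2-fold between states, beside backgrounds of 2.84% higher and 5.37% lower in POA and 5.33% higher and 5.75% lower in CGE. Between regions, Cdh11 was past 2-fold higher in POA among progenitor-like cells alone. Red-blood genes summed to 1953 CPM in POA and 490 CPM in CGE, and 12 cell barcodes occur in both libraries. Their part in these values was not tested.

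**Figure D4:**
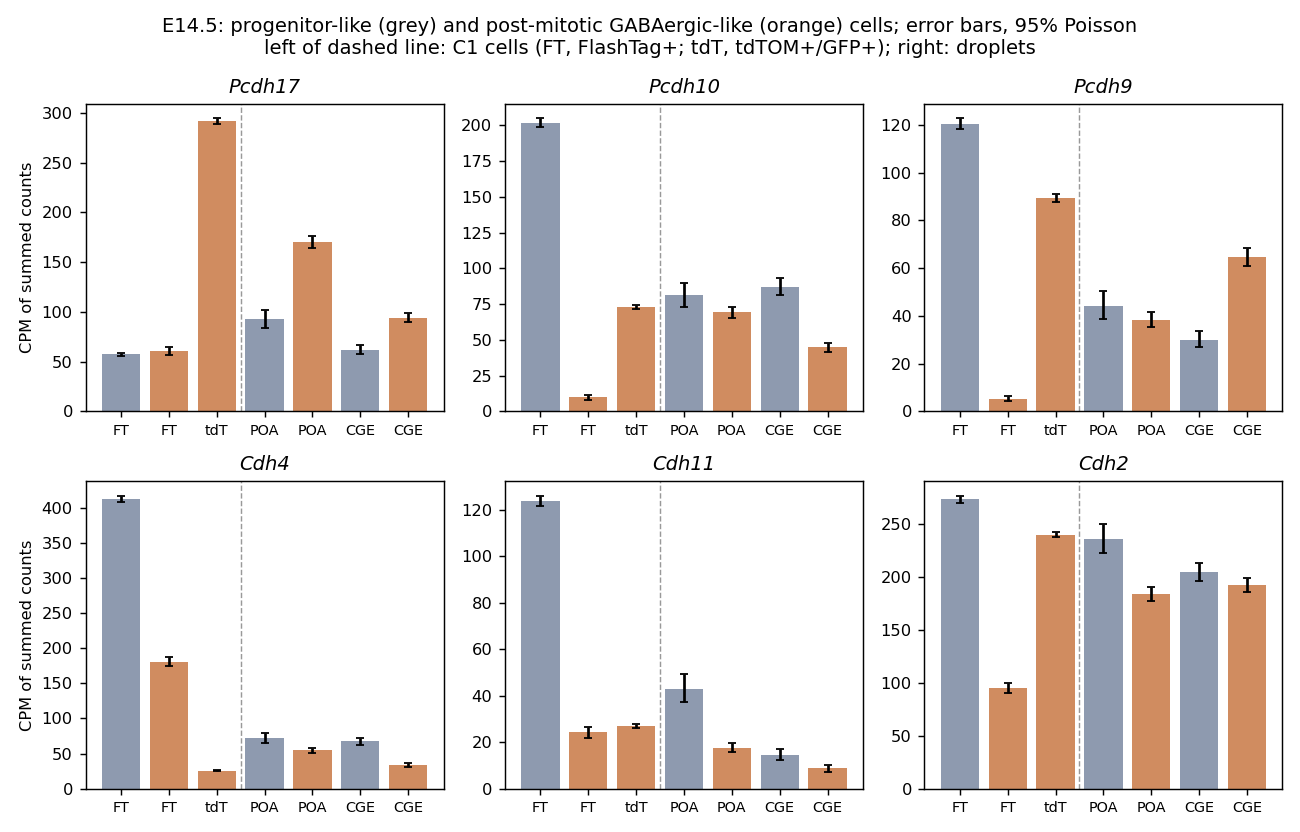
CPM of summed counts with 95% Poisson intervals for members in E14.5 progenitor-like (grey) and post-mitotic GABAergic-like (orange) cells, with plate-based cells left and droplet libraries right of the dashed line. Among the plate-based cells Pcdh17 is highest in tdTOM+/GFP+ cells, and Pcdh10 in FlashTag+ cells falls from 202 CPM in progenitor-like to 9.73 CPM in post-mitotic-like cells.

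The clustered protocadherins are reported apart, because the alpha and gamma genes share their last exons, only reads that fall in 1 gene were counted, and the libraries read mainly the 3′ ends. The beta genes are single exons and are counted whole, while the alpha and gamma values are uncertain. The P15 table lists 1 alpha, 20 beta and 1 gamma gene while the P30 table lists 13 alpha, 21 beta and 21 gamma genes. In P15 cells the number of beta genes with a count ran from 0 to 6 with a median of 3 in Dock5+NGCs and from 0 to 6 with a median of 2 in Lsp1+NGCs. At P30 it ran from 0 to 7 and from 0 to 6, with a median of 2 in both. No beta gene was counted in 17.1% of Dock5+NGCs, 8.57% of Lsp1+NGCs and 12.5% of non-NGCs at P30. No gamma gene was counted in 42.1%, 31.4% and 32.3%, and no alpha gene in 67.1%, 68.6% and 61.5% of them.

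Summed over the beta cluster, the subtypes were close, with 369 CPM in Dock5+NGCs and 364 CPM in Lsp1+NGCs at P15 and 209 and 238 CPM at P30. Single genes differed more, and at P15 mostly through single cells. Of 14 clustered genes that passed at P15, 1 was past 2-fold higher and 2 lower, and of 11 at P30, 1 and 1. Over all genes, 17.4% at P15 and 16.6% at P30 were past 2-fold in either direction. Genes that passed through 1 group alone made up 2 of these calls at P15 and 1 at P30. Pcdhb6 had 25.0 against 0.207 CPM at P15, with 91.3% of the Dock5+NGC counts in 1 cell. Pcdhb8 had 0.853 against 19.7 CPM, with 96.3% of the Lsp1+NGC counts in 1 cell. The gamma gene Pcdhgc4, one of the C-type isoforms, had 22.3 against 70.5 CPM at P15 and 44.8 against 44.1 CPM at P30. Pcdhb7, one of the most abundant beta genes, had 115 against 73.8 CPM at P15 and 40.3 against 3.05 CPM at P30. Between NGCs and non-NGCs, Pcdhb12 was past 2-fold higher at P15, with 39.6 against 7.03 CPM, of which 60.2% lay in 1 NGC, and Pcdhb20 at P30, with 18.7 against 4.04 CPM. They were 1 of 13 clustered genes tested at P15 and 1 of 14 at P30, beside 12.7% of all genes in either direction at each age. Both passed through 1 group alone. In patch-seq cells 4 clustered genes of 7 were past 2-fold higher in Dock5 cells, beside 7.63% of all genes. Each had most of its Dock5 counts in 1 cell, and without that cell Pcdhb3 went to -0.0069 and Pcdhb9 to -0.50. All 4 are among the 5 of the 7 that passed through 1 group alone.

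At E14.5 more tdTOM+/GFP+ than FlashTag+ cells held a clustered gene. Only genes listed in both tables were used here, 9 alpha, 19 beta and 21 gamma genes, while the tdTOM+/GFP+ table lists 14, 20 and 22. Among the genes used, no alpha gene was counted in 76.1% against 94.6% of cells, no beta gene in 50.0% against 69.6% and no gamma gene in 40.2% against 59.9%. With each cell thinned to the same depth the shares without a gene were 78.0% and 94.4% for alpha, 54.8% and 75.0% for beta and 45.9% and 66.3% for gamma. The summed levels of the genes used were 24.0 against 6.99 CPM for alpha, 72.3 against 47.1 CPM for beta and 91.4 against 63.5 CPM for gamma. In droplets, 12 alpha, 21 beta and 21 gamma genes were listed in both libraries. The alpha genes summed to 6.26 CPM in POA and 6.14 CPM in CGE, the beta genes to 57.5 and 35.8 CPM and the gamma genes to 51.4 and 41.0 CPM.

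**Figure D5:**
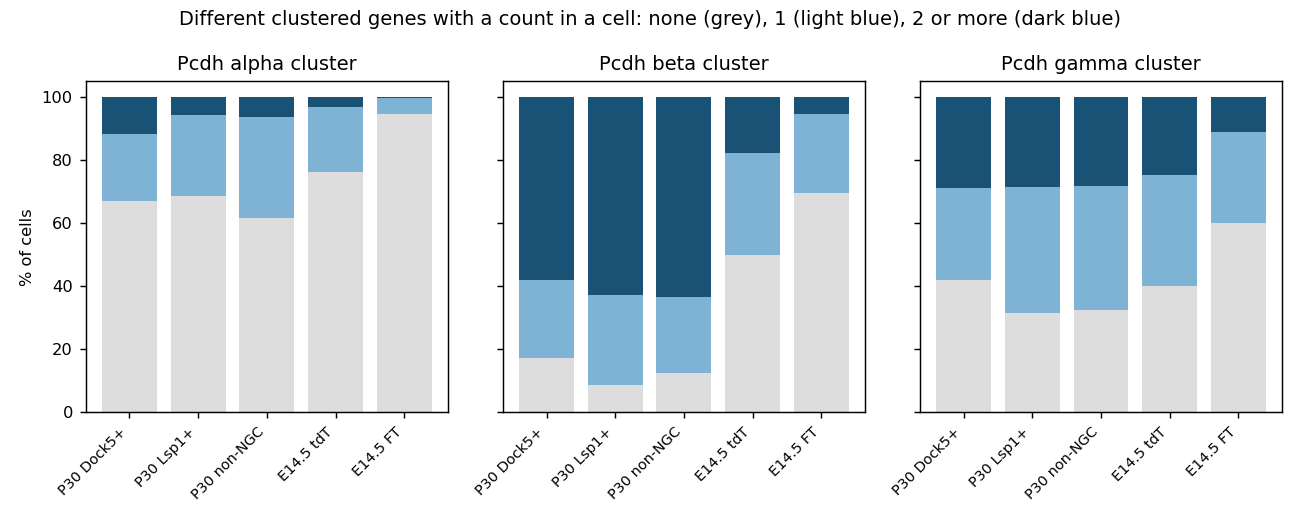
Percent of cells with none (grey), 1 (light blue) or 2 or more (dark blue) different genes of the alpha, beta and gamma clusters counted, in P30 Dock5+NGCs, Lsp1+NGCs and non-NGCs and in E14.5 tdTOM+/GFP+ and FlashTag+ cells. The E14.5 bars cover the 9 alpha, 19 beta and 21 gamma genes listed in both E14.5 tables, and the P30 bars 13, 21 and 21 genes. FlashTag+ cells have the largest share with none in each cluster (94.6%, 69.6% and 59.9%).

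The intracellular partners of the family were followed with lists of the wider pathway, whose counts are read against the shares of all genes past 2-fold in either direction: 17.4% and 16.6% between the subtypes and 12.7% and 12.7% between NGCs and non-NGCs at P15 and P30, 22.2% between the E14.5 sorted cells, 16.7% in patch-seq and 3.35% in the droplets. Of catenins and related plaque proteins, which link cadherins to actin, 1 of 6 tested was past 2-fold at P15 between the subtypes, Pkp4, with 113 CPM in Dock5+NGCs and 265 CPM in Lsp1+NGCs, and 0 of 8 at P30. Between NGCs and non-NGCs 0 of 6 and 0 of 8 were past 2-fold. At E14.5 Ctnna2, the neuronal alpha-catenin, was higher in tdTOM+/GFP+ cells, with 218 against 93.5 CPM, and Ctnna1, the general alpha-catenin, was lower, with 49.1 against 229 CPM. Of 11 tested genes of the WAVE complex and protocadherin effectors, Cyfip2 had 130 against 32.2 CPM and Cyfip1 20.3 against 89.0 CPM in the same comparison. Both are subunits of the WAVE complex. Wasf3, a WAVE protein, was higher in NGCs than in non-NGCs at P15, with 149 against 60.2 CPM.

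Of 11 regulators of the clustered genes, such as Ctcf and cohesin subunits, 0 were past 2-fold at P15 and 2 were lower in Dock5+NGCs at P30, of which Stag1, a cohesin subunit, had 70.7 against 163 CPM. In the NGC comparisons, in the E14.5 sorted cells and in the droplets 0 of 11 were past 2-fold. Of the other cadherin-superfamily genes, Celsr3, a seven-pass cadherin of axon guidance, was lower in Dock5+NGCs at P30, with 21.7 against 113 CPM. The atypical cadherin Fat1 was higher in NGCs than in non-NGCs at P30, with 134 against 19.2 CPM, and lower in tdTOM+/GFP+ than in FlashTag+ cells, with 12.4 against 138 CPM. Celsr2 had 40.4 against 131 CPM in that E14.5 comparison, in which 1 of 8 such genes was higher and 4 lower.

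In patch-seq cells, 1 of 9 catenins and partners was past 2-fold higher in Dock5 cells and 4 were lower, 1 of 12 WAVE and effector genes was higher and 1 lower, 1 of 11 regulators was higher, and 0 of 7 other cadherin-superfamily genes were higher and 2 lower. In the droplets, 0 of 8 catenins and partners and 0 of 11 WAVE and effector genes were past 2-fold, and 1 of 9 other superfamily genes was higher in POA.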

How the data were processed

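Whole-number counts per gene and cell were deposited for the plate-based cells, the patch-seq cells and the droplet libraries. Per the labels and methods, the authors aligned reads to mm10 with STAR, counted reads in genes on their strand, collapsed molecular identifiers of the plate-based cells with UMI-tools and processed droplets with Cell Ranger. Whether patch-seq counts, up to 15968484 in a cell, were collapsed is not clear, so they may be reads rather than molecules. The counts were summed per group and divided by the group total. Poisson and Clopper-Pearson 95% intervals were exact, and 10 CPM was added to both groups before log2. The steps were run on simulated group totals, drawn with counting error only and no spread between cells, for genes of at least 50 CPM. Of 100 genes changed 3-fold and 100 changed 8-fold between P30 Dock5+NGCs and Lsp1+NGCs, 100 and 100 were past 2-fold. This checks the computation only, and not how the rule performs on cells that differ as the real cells do. Tables were handled with pandas 2.3.3 and numpy 2.4.6 under Python 3.11.15, intervals came from scipy 1.17.1 and plots from matplotlib 3.10.9. Gene locations are from GENCODE M21 on GRCm38 and promoters from RefSeq.

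The text names Pcdh10 and Pcdh17, non-clustered members past 2-fold (at most 8 in a direction), those with a mean of at least 50 CPM and a smaller fold, per cluster the 3 most abundant clustered genes, and in other lists genes past 2-fold with a mean of at least 50 CPM. A member named in one comparison is given in others too. Clustered genes past 2-fold and members of lower level or smaller fold outside this rule were chosen after their values were seen. The members and lists were chosen with earlier results of these data known. Alternatives changed the amount added, the filter, the weighting and depth of cells, the largest cell, plate rows, sorts, ages and cell states. Cells called inconclusive entered no comparison of subtypes or NGCs, and their levels are given by sort as a description.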

Additional observations from a re-analysis of the deposited data

How the results depend on the processing

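Of the 63 alternative counts of non-clustered members past 2-fold, 53 were within 1.5 times the count reported. Such counts take no account of direction or of which member was called. Post-mitotic-like cells of E14.5 gave 7 members higher in tdTOM+/GFP+ cells and 3 lower, in place of 2 and 5. In P15 plate rows 1 to 20, the 1 member higher in NGCs was Pcdh11x in place of Pcdh17. Requiring a mean of 50 CPM in place of 10 gave 4 members in place of 10 at P15 and 2 in place of 10 at P30 between the NGC subtypes, 7 in place of 11 between NGCs and non-NGCs at P30, and 0 in place of 2 in patch-seq, because fewer genes were tested. The patch-seq count was also 4 without a filter, 8 from the mean CPM of single cells, 7 with cells thinned to 1 depth and 5 with cells of P15 to P18 only, and the cause was not tested. The droplet count was 1 in place of 0 with 1 CPM added and among progenitor-like cells. Of 973 alternative log2 folds of named genes, 338 stayed within the counting interval of the value reported, 630 moved beyond it with no call reversed, and 5 reversed: Cdh4 at P30 in plate rows 21 to 40 (0.65), Pcdhb3 (-0.0069) and Pcdhb9 (-0.50) in patch-seq without the largest cell, and Pcdh10 (2.08) and Cdh11 (0.11) at E14.5 in post-mitotic-like cells. The last setting, and patch-seq without cells over 1000 CPM of oligodendrocyte-lineage markers, were chosen after seeing the data. Counts per cell were lowest in the droplet libraries, where a median cell held 7574 or 5710 counts. Plate-based cells gave more counts per positive cell, so the totals of the platforms are not on the same scale. No test was run over the 8 patch sets, which the labels do not tie to animals and some of which hold subtypes of different ages.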
